A study of Arabidopsis thaliana with 12 samples.

Results

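The plastid-encoded photosynthesis genes of Arabidopsis thaliana were followed across 2 positions of the inflorescence stem in wox4-1 and wild-type plants. They were taken as the probe sets annotated to exactly 1 gene whose symbol begins psa, psb, pet or ndh in lower case, or is rbcL, atpA, atpB, atpE, atpF, atpH, atpI, ccsA, cemA, ycf3 or ycf4. This gave 47 genes, each read by 1 of the 22746 probe sets tested, and all 47 lie on the plastid chromosome of the RefSeq gene table for TAIR10.1. They are 47 of the 69 plastid-encoded genes that a probe set names alone; the remaining 22 code for ribosomal proteins, RNA polymerase and a few other products. By complex, 15 belong to photosystem II, 5 to photosystem I, 6 to the cytochrome b6f complex, 10 to the NDH complex and 6 to the ATP synthase, and 1 (rbcL) codes for the large subunit of Rubisco. The other 4 form a group labelled assembly and maturation: ccsA, ycf3, ycf4 and the envelope membrane protein gene cemA, placed there for want of a complex. The gene ndhB was not among them, because its probe set carries that name for both copies of the inverted repeat.

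Gene expression was measured on Affymetrix ATH1 arrays in 4 groups of 3 arrays: wox4-1 stem bases, wild-type stem bases, wox4-1 first internodes and wild-type first internodes. The wild type and the background are Columbia, and wox4-1 is a mutant allele of WOX4, a homeobox gene known to promote the activity of the vascular cambium; the labels do not describe the allele, and WOX4 itself is named by none of the probe sets and was not analysed here. All plants were 49 to 58 days old, 15 to 20 cm tall, and had been moved to days of 16 h light after 3 weeks of 8 h light. Each array holds RNA from a pool of 13 to 17 fragments of 0.5 cm, cut either at the base or in the region 1.5 to 2.0 cm above the rosette, so whole stem pieces with all their tissues were measured. The labels call the 3 pools of a group biological replicates.

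Photosynthetic complexes of the thylakoid membrane are assembled from subunits of both genomes: the plastid genome codes mostly for the cores, and the nucleus for peripheral and antenna subunits. Plastid genes are read in transcription units of several genes by a plastid-encoded and a nucleus-encoded RNA polymerase, and the long transcripts are then cut and protected by nucleus-encoded RNA-binding proteins, so that genes of a unit need not reach the same level. In stems these complexes work in the green cortex below the epidermis, while the base is the part in which the cambium and the wood it forms are most advanced.

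Each value is the log2 of a probe set's RMA signal and is called a level below. Levels ran from 2.29 to 13.60, with array medians of 5.56 to 5.71, and within a group the arrays had correlations of 0.992 to 0.997 across probe sets. In a bulk fragment, fewer cells of a type and less RNA per cell cannot be told apart. Levels of different probe sets cannot be set against each other, so only differences between arrays are read. With 3 arrays a group the number of arrays limits the precision, and the p-values measure the spread between these pools.

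Array 1 of the wox4-1 bases stood apart from the other 2 of its group in these genes. On it, 18 of the 47 genes lay at least 0.5 below the mean of the other wox4-1 base arrays on the log2 scale, and 1 gene (petL) lay at least 0.5 above it. Of all probe sets, 4.52% were as far below on that array and 1.77% as far above. On each of the other 11 arrays 0 to 2 genes were 0.5 below the mean of the rest of their group, and 10 genes were 0.5 above it on array 3 of the wox4-1 bases, whose mean for comparison includes array 1. The genes that were low on array 1 included psaB (by 1.54), psbZ (by 1.26), psbT (by 1.13), psbC, psbH, petB, atpA, atpB and atpH, while psbK, ndhA, ndhC and ccsA were 0.02 to 0.07 higher there, and psbA, psaC and ndhD were 0.34 to 0.46 higher. Array 2 of the wox4-1 internodes also differed: its actin control had a 3' signal 2.26 above the 5' signal on the log2 scale, against 1.22 to 1.51 on the other 11 arrays. Leaving out array 1 of the wox4-1 bases ends calls or moves changes of several genes, and the values without it are given below for part of them. Between base and internode, the average changes of psbT, psbC, petB, atpA and atpB still passed without it. They were then smaller in size than those printed below, at -0.59, -0.41, -0.29, -0.54 and -0.44 on the log2 scale. The part of RNA quality in the differences of these arrays was not tested.

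**Figure D1:**
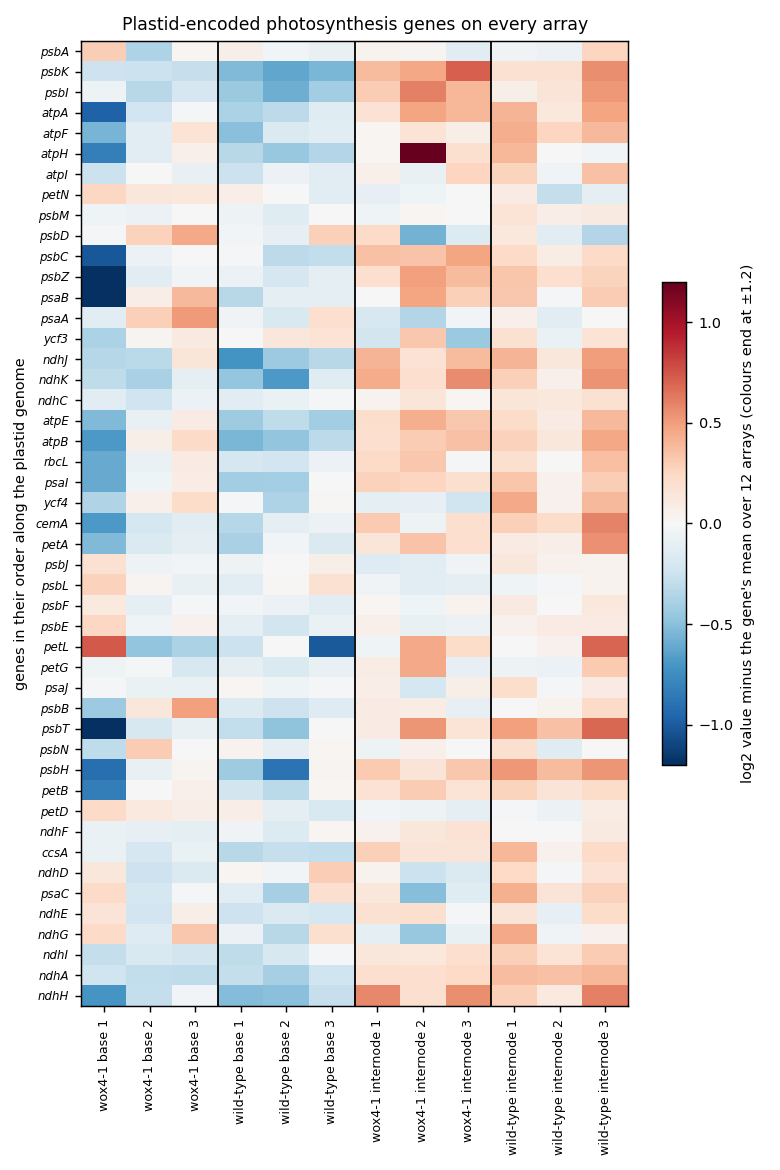
Levels of the 47 genes on the 12 arrays, as the log2 value minus the mean of that gene over all arrays, with genes from top to bottom in their order along the plastid genome and arrays in columns by group (red above, blue below the mean). The median over the genes is above the mean in the internode columns (0.06 to 0.27). It is below the mean in the base columns (-0.25 to -0.09), except wox4-1 base 3, where it is near 0 (-0.002). The first column, wox4-1 base 1, is the darkest blue for psaB, psbZ and psbT.

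Plastid-encoded photosynthesis genes were mostly lower at the base than in the first internode, in both genotypes. In the average of wox4-1 and wild type, 25 of the 47 genes fell at the base and none rose, at an adjusted p under 0.05 by limma. These 25 are 53.2% of the genes, beside 17.1% of all probe sets called lower and 17.1% called higher (14% lower and 25.4% higher with each array centred on its median). Unadjusted p was under 0.05 for 28 genes (1 of them higher), beside 9750 of all 22746 probe sets (5101 of them higher). The median log2 change over the genes was -0.36, against 0.03 over all probe sets. The decreases ranged from -0.16 (ndhF) to -0.83 (psbK), which is a level of RNA at the base of 0.563 times that in the internode for psbK.

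Taken by genotype, 17 genes fell at the base in wox4-1 and 18 in wild type, and none rose in either. In wox4-1 13% of all probe sets were called lower and 11.4% higher, and in wild type 10.1% lower and 9.6% higher. With each array centred on its median these shares were 10% lower and 20.8% higher in wox4-1, where centring raised the median of all probe sets to 0.13, and 9.02% lower and 10.9% higher in wild type. Of these genes, 14 fell in both, which is 82.4% of the wox4-1 calls and 77.8% of the wild-type calls. Another 3 (psbC, psbZ and ndhF) passed in wox4-1 alone and 4 (psbH, atpB, atpF and psaI) in wild type alone. The difference between the genotypes was tested gene by gene and passed for none of the 47, so passing in 1 genotype is not a difference between them. All 3 base arrays lay below all 3 internode arrays for 20 genes in wox4-1 and for 32 genes in wild type, beside 17.6% of all probe sets in wox4-1 and 18.6% in wild type. The reverse, all bases above all internodes, held for 2 genes in wox4-1 (petD and petN), beside 21.1% of all probe sets. Over both genotypes all 6 base arrays lay below all 6 internode arrays for 16 genes, beside 9.31% of all probe sets. With array 1 of the wox4-1 bases left out, 10 genes fell and 1 (psaA) rose in wox4-1, beside 11.3% of all probe sets lower and 8.91% higher. The calls of atpE, cemA, ndhC, ndhF, ndhJ, petA and psbT were then lost. Without array 2 of the wox4-1 internodes 11 fell, beside 10.1% of all probe sets, with the calls of atpE, ndhC, ndhF, petA, psbT and psbZ lost. In wild type 11 fell without array 3 of the internodes, beside 7.34% of all probe sets. The wild-type calls also depended on array 1 of the wox4-1 bases, since all groups share 1 fit. With that array left out 25 genes fell in wild type, beside 11.8% of all probe sets, psbC and psbZ among them. With only the wild-type arrays fitted 24 were called, again with psbC and psbZ, beside 11.5% of all probe sets lower and 10.9% higher. In the average of both genotypes, 22 to 26 genes were called when 1 array was left out, beside 15.3% to 17.3% of all probe sets lower and 14.8% to 17.3% higher.

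**Figure D2:**
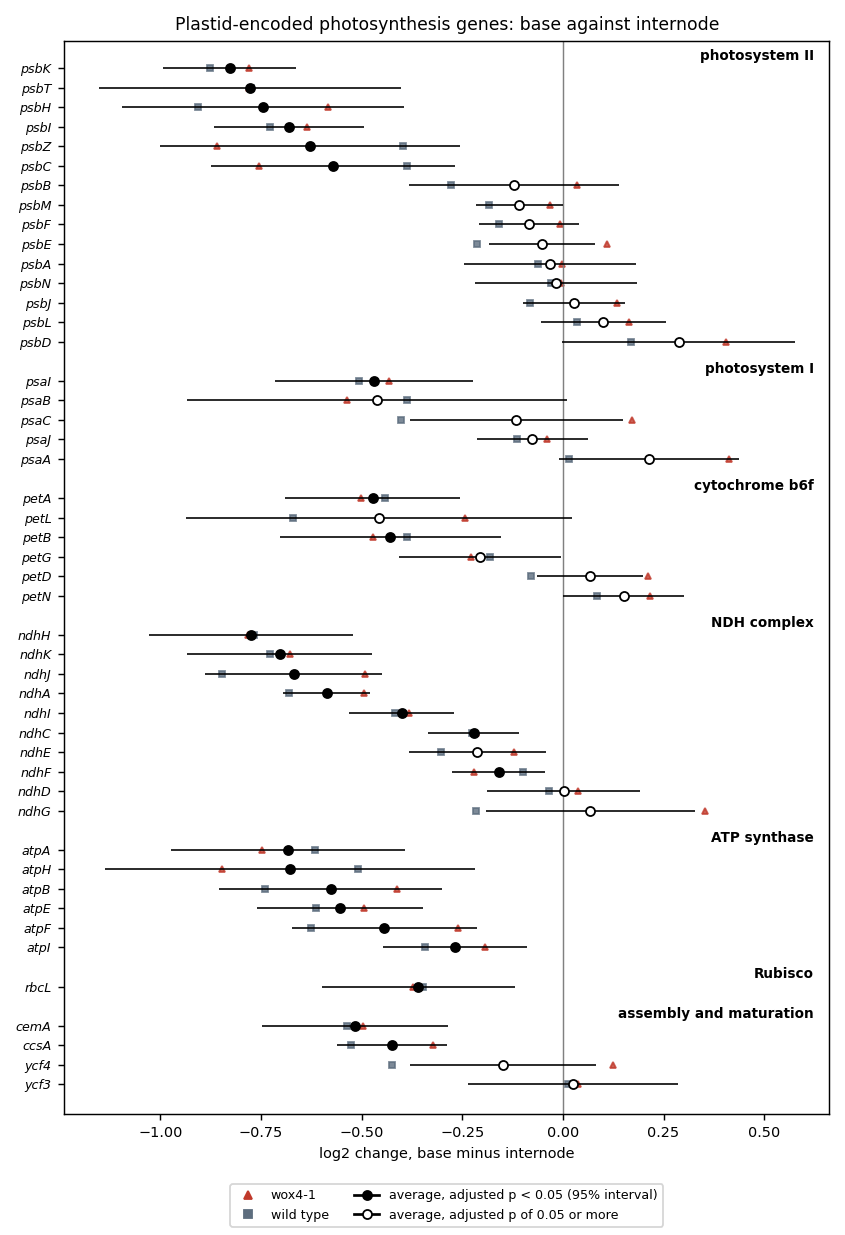
Log2 change between base and internode for each of the 47 genes, grouped by complex: black circles give the average of both genotypes with its 95% interval (filled where the adjusted p is under 0.05), red triangles wox4-1 and grey squares wild type. All 6 genes of the ATP synthase are filled and left of 0, while filled and open circles are mixed in both photosystems.

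The ATP synthase, which makes ATP from the proton gradient across the thylakoid, had decreases in all its measured plastid genes, 6 of 6 in the average. Of all probe sets 17.1% were called lower. The median log2 change over the 6 genes was -0.57. Among the subunits of its catalytic head, atpA (alpha subunit) had levels of 9.04, 9.78 and 10.00 in wox4-1 bases and 9.63, 9.70 and 9.87 in wild-type bases, against 10.18, 10.48 and 10.41 in wox4-1 internodes and 10.42, 10.14 and 10.48 in wild-type internodes. All 6 base arrays lay below all 6 internode arrays, and the change was -0.68 (SE 0.135, adjusted p = 0.00143 by limma). For atpB, the catalytic beta subunit, levels were 11.27, 12.03 and 12.19 in wox4-1 bases and 11.41, 11.48 and 11.64 in wild-type bases, against 12.16, 12.26 and 12.31 in wox4-1 internodes and 12.23, 12.09 and 12.42 in wild-type internodes. Here array 3 of the wox4-1 bases reached the range of the internodes, and the change was -0.58 (SE 0.129, adjusted p = 0.00328 by limma). The epsilon subunit gene atpE, which is read together with atpB, had levels of 11.84, 12.28 and 12.47 in wox4-1 bases and 11.95, 12.07 and 11.96 in wild-type bases, against 12.58, 12.81 and 12.70 in wox4-1 internodes and 12.59, 12.47 and 12.76 in wild-type internodes. The base arrays were lower except that the highest, wox4-1 base 3, equalled the lowest internode array, and the change was -0.55 (SE 0.0957, adjusted p = 0.000513 by limma).

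The other subunits belong to the stalk and the membrane part of the enzyme. Levels of atpF, a stalk subunit, were 5.83, 6.25 and 6.55 in wox4-1 bases and 5.89, 6.22 and 6.26 in wild-type bases, against 6.41, 6.55 and 6.46 in wox4-1 internodes and 6.83, 6.65 and 6.78 in wild-type internodes. The wild-type arrays of base and internode did not overlap and those of wox4-1 did, with changes of -0.26 in wox4-1 and -0.63 in wild type. The wox4-1 change of atpF was -0.07 without array 1 of the bases. For atpH, which codes for the subunit of the rotating ring, levels were 6.11, 6.81 and 6.99 in wox4-1 bases and 6.60, 6.48 and 6.58 in wild-type bases, against 6.96, 8.37 and 7.13 in wox4-1 internodes and 7.33, 6.94 and 6.90 in wild-type internodes. The high array is wox4-1 internode 2, the one with the high actin control ratio. The change of atpH was -0.68 (adjusted p = 0.0244 by limma), against -0.46 (adjusted p = 0.0263) without that array and -0.55 (adjusted p = 0.0615) without array 1 of the wox4-1 bases. The dim gene atpI, the other channel subunit, had levels of 3.19, 3.44 and 3.36 in wox4-1 bases and 3.19, 3.37 and 3.31 in wild-type bases, against 3.51, 3.36 and 3.70 in wox4-1 internodes and 3.71, 3.40 and 3.80 in wild-type internodes. The wild-type positions were apart and those of wox4-1 overlapped. The average change was -0.27 (adjusted p = 0.0232 by limma), and it did not pass without array 1 of the wox4-1 bases. In that setting 4 of the 6 ATP synthase genes were called, beside 16.9% of all probe sets lower.

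The NDH complex passes electrons from ferredoxin back to plastoquinone in cyclic electron transport. Of its 10 measured plastid genes 7 fell, beside 17.1% of all probe sets, and the median log2 change over all 10 was -0.31. All 4 genes for the stromal arm that accepts electrons, ndhH, ndhI, ndhJ and ndhK, were among these 7. The gene with the smallest p of all 47 was ndhA, a membrane subunit, with levels of 10.71, 10.65 and 10.64 in wox4-1 bases and 10.66, 10.55 and 10.71 in wild-type bases, against 11.15, 11.15 and 11.19 in wox4-1 internodes and 11.32, 11.30 and 11.35 in wild-type internodes. Base and internode were well apart on all arrays, and the arrays of each group lay close together. Its change was -0.49 in wox4-1 and -0.68 in wild type, and -0.59 in the average (SE 0.0499, adjusted p = 1.11e-06 by limma). Levels of ndhI were 12.12, 12.22 and 12.19 in wox4-1 bases and 12.10, 12.21 and 12.39 in wild-type bases, against 12.54, 12.53 and 12.61 in wox4-1 internodes and 12.69, 12.57 and 12.71 in wild-type internodes. All base arrays lay below all internode arrays, by -0.40 on average (SE 0.0606, adjusted p = 0.000178 by limma).

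The decrease of ndhH was larger but rests on a dim probe set, with levels of 3.13, 3.55 and 3.80 in wox4-1 bases and 3.32, 3.33 and 3.56 in wild-type bases, against 4.41, 4.03 and 4.39 in wox4-1 internodes and 4.12, 3.95 and 4.44 in wild-type internodes. No base array reached an internode array, and the change was -0.77 (SE 0.118, adjusted p = 0.000184 by limma). For ndhJ levels were 6.58, 6.60 and 7.07 in wox4-1 bases and 6.21, 6.49 and 6.59 in wild-type bases, against 7.33, 7.10 and 7.30 in wox4-1 internodes and 7.33, 7.06 and 7.43 in wild-type internodes. Within each genotype the positions were apart, and array 3 of the wox4-1 bases was level with the lowest wild-type internode array. The change was -0.49 in wox4-1 (-0.41, adjusted p = 0.091, without array 1 of the bases) and -0.85 in wild type. Its neighbour ndhK had levels of 6.29, 6.20 and 6.47 in wox4-1 bases and 6.13, 5.90 and 6.45 in wild-type bases, against 7.04, 6.79 and 7.16 in wox4-1 internodes and 6.88, 6.65 and 7.13 in wild-type internodes. The base arrays were below the internode arrays throughout, with a change of -0.70 (SE 0.107, adjusted p = 0.000182 by limma). The third gene of that unit, ndhC, had levels of 10.98, 10.88 and 11.05 in wox4-1 bases and 10.99, 11.04 and 11.09 in wild-type bases, against 11.16, 11.26 and 11.14 in wox4-1 internodes and 11.26, 11.24 and 11.30 in wild-type internodes. Base and internode did not overlap here either, but the decrease was smaller, -0.22 (SE 0.0528, adjusted p = 0.00505 by limma). In wild type its change of -0.23 passed narrowly (adjusted p = 0.0483) and did so in only 8 of 20 alternatives, not with the replicate number as a block within genotype (adjusted p = 0.0886). The wox4-1 change of ndhC, -0.22, also passed narrowly (adjusted p = 0.04945 by limma), and in only 4 of 20 alternatives.

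Other membrane subunits of the NDH complex had smaller changes. The dim probe set of ndhF was between 2.74 and 3.08 on all 12 arrays, and its change of -0.16 (adjusted p = 0.0336 by limma) did not pass in 8 of the 18 alternative settings. Its wox4-1 change of -0.22 (adjusted p = 0.0489 by limma) passed in only 2 of 19 alternatives. For ndhE levels were 4.66, 4.27 and 4.57 in wox4-1 bases and 4.25, 4.33 and 4.29 in wild-type bases, against 4.68, 4.69 and 4.49 in wox4-1 internodes and 4.66, 4.40 and 4.72 in wild-type internodes. The wild-type positions were apart and those of wox4-1 overlapped, and the change of -0.21 did not pass (adjusted p = 0.0533 by limma). It did in 4 of 18 alternatives, all with arrays left out, among them array 1 of the wox4-1 bases (-0.25, adjusted p = 0.0248). In ndhD, levels were 8.70, 8.31 and 8.39 in wox4-1 bases and 8.58, 8.53 and 8.86 in wild-type bases, against 8.60, 8.30 and 8.39 in wox4-1 internodes and 8.80, 8.54 and 8.73 in wild-type internodes. Its positions overlapped in both genotypes, with a change of 0.00 and a 95% interval of -0.19 to 0.19. Levels of ndhG were 5.32, 4.93 and 5.41 in wox4-1 bases and 5.02, 4.75 and 5.28 in wild-type bases, against 4.98, 4.63 and 5.0 in wox4-1 internodes and 5.54, 5.04 and 5.14 in wild-type internodes. Here wox4-1 arrays overlapped between base and internode and so did those of wild type, with changes of 0.35 and -0.22 in wox4-1 and wild type that did not pass.

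Photosystem II, which splits water, showed the widest range of changes of any complex. Of its 15 genes 6 fell, beside 17.1% of all probe sets. These 6 all fell by more than 0.5 on the log2 scale, and the other 9 had changes between -0.12 and 0.29 that did not pass. The gene with the largest decrease of the whole set was psbK, a small subunit of the core, with levels of 10.49, 10.48 and 10.46 in wox4-1 bases and 10.21, 10.11 and 10.19 in wild-type bases, against 11.12, 11.20 and 11.45 in wox4-1 internodes and 10.92, 10.92 and 11.29 in wild-type internodes. Every base array was lower than every internode array, and the arrays of each base group lay close together. The change was -0.83 (SE 0.0771, adjusted p = 2.45e-06 by limma). The gene next to it, psbI, another small core subunit, had levels of 10.67, 10.40 and 10.53 in wox4-1 bases and 10.29, 10.15 and 10.32 in wild-type bases, against 11.04, 11.34 and 11.13 in wox4-1 internodes and 10.80, 10.89 and 11.25 in wild-type internodes. The positions did not overlap, and the change was -0.68 (SE 0.0865, adjusted p = 4.04e-05 by limma).

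Of the small subunits psbT and psbH, the first had levels of 3.52, 4.60 and 4.70 in wox4-1 bases and 4.49, 4.31 and 4.78 in wild-type bases, against 4.89, 5.32 and 4.95 in wox4-1 internodes and 5.28, 5.14 and 5.48 in wild-type internodes. The bases were below the internodes on all arrays and wox4-1 base 1 was the lowest by far. The change of psbT was -0.78 (SE 0.174, adjusted p = 0.00335 by limma). For psbH levels were 8.63, 9.45 and 9.57 in wox4-1 bases and 9.11, 8.65 and 9.57 in wild-type bases, against 9.85, 9.69 and 9.86 in wox4-1 internodes and 10.06, 9.92 and 10.07 in wild-type internodes. Both base groups were spread widely and stayed below the internodes, with changes of -0.58 in wox4-1 (adjusted p = 0.0815 by limma, and -0.29 without array 1 of the bases) and -0.91 in wild type (adjusted p = 0.0131). Levels of psbZ, which helps to join antenna and core, were 9.14, 10.35 and 10.45 in wox4-1 bases and 10.41, 10.28 and 10.36 in wild-type bases, against 10.68, 10.97 and 10.86 in wox4-1 internodes and 10.81, 10.68 and 10.75 in wild-type internodes. The wox4-1 change of -0.86 included the low array 1, and without it was -0.44 (adjusted p = 0.00576 by limma), against -0.40 in wild type. The inner antenna protein gene psbC (CP43) had levels of 7.73, 8.67 and 8.74 in wox4-1 bases and 8.73, 8.43 and 8.45 in wild-type bases, against 9.10, 9.09 and 9.22 in wox4-1 internodes and 8.97, 8.83 and 8.97 in wild-type internodes. It was lower at the base on all arrays, by -0.57 on average (adjusted p = 0.00622 by limma).

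The genes for the reaction centre pair and for the other inner antenna did not pass. For psbA, the D1 protein that is replaced as it is damaged by light, levels were 8.37, 7.71 and 8.10 in wox4-1 bases and 8.15, 8.04 and 7.99 in wild-type bases, against 8.12, 8.11 and 7.95 in wox4-1 internodes and 8.03, 8.01 and 8.33 in wild-type internodes. The 4 groups overlapped, and the change was -0.03, with a 95% interval of -0.25 to 0.18. For psbD (D2 protein), levels were 6.67, 6.97 and 7.15 in wox4-1 bases and 6.66, 6.60 and 6.98 in wild-type bases, against 6.93, 6.13 and 6.53 in wox4-1 internodes and 6.82, 6.57 and 6.34 in wild-type internodes. The base means were above the internode means, but the arrays overlapped and the change of 0.29 (SE 0.134) did not pass (adjusted p = 0.118 by limma), except without array 1 of the wox4-1 internodes (0.39, adjusted p = 0.0289). For psbB (CP47), levels were 5.55, 6.12 and 6.48 in wox4-1 bases and 5.82, 5.74 and 5.83 in wild-type bases, against 6.08, 6.07 and 5.89 in wox4-1 internodes and 5.99, 6.03 and 6.21 in wild-type internodes. The wild-type bases were lower than the wild-type internodes on all arrays and the wox4-1 arrays overlapped, with changes of 0.03 in wox4-1 and -0.28 in wild type that did not pass. Without array 1 of the wox4-1 bases the wox4-1 change of psbB was 0.29 (adjusted p = 0.0965 by limma).

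None of the genes for cytochrome b559 and its small neighbours passed. Levels of psbE, its alpha subunit, were 10.78, 10.48 and 10.59 in wox4-1 bases and 10.43, 10.32 and 10.46 in wild-type bases, against 10.60, 10.45 and 10.47 in wox4-1 internodes and 10.59, 10.63 and 10.63 in wild-type internodes. For psbF, its beta subunit, they were 11.66, 11.42 and 11.53 in wox4-1 bases and 11.51, 11.47 and 11.40 in wild-type bases, against 11.56, 11.49 and 11.58 in wox4-1 internodes and 11.65, 11.54 and 11.67 in wild-type internodes. In wild type both were lower at the base on all arrays and in wox4-1 they overlapped, and neither change passed (-0.05 for psbE and -0.08 for psbF in the average). Levels of psbL were 10.29, 10.05 and 9.92 in wox4-1 bases and 9.89, 10.03 and 10.20 in wild-type bases, against 9.97, 9.89 and 9.90 in wox4-1 internodes and 9.96, 10.00 and 10.06 in wild-type internodes. For psbJ they were 11.11, 10.86 and 10.89 in wox4-1 bases and 10.86, 10.92 and 10.99 in wild-type bases, against 10.77, 10.80 and 10.88 in wox4-1 internodes and 11.06, 10.98 and 10.97 in wild-type internodes. These 2 small subunit genes overlapped between positions in both genotypes, and the 95% intervals of their changes were -0.06 to 0.26 for psbL and -0.10 to 0.15 for psbJ. The probe set of psbM lay between 13.1 and 13.4 on all arrays, near the top of the scale, where differences may be compressed, and its change of -0.11 did not pass except with trended and robust variances (adjusted p = 0.0427 by limma). The assembly gene psbN is read from the opposite strand between psbT and psbH. Unlike them it had a change of -0.02 (95% interval -0.22 to 0.18), on a dim probe set.

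**Figure D3:**
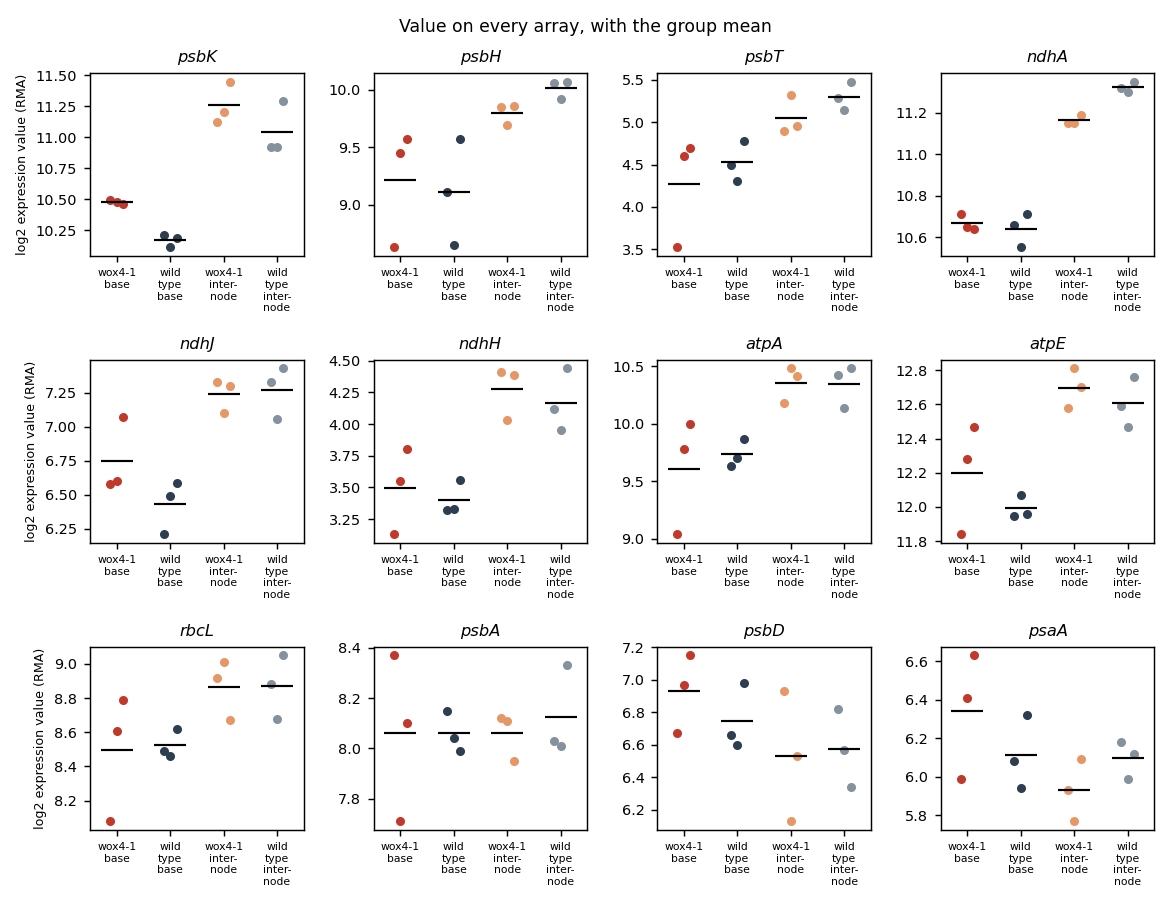
Log2 levels on every array (points) with the mean of each group (bars) for 12 of the genes, each panel with its own axis and the groups in the order wox4-1 base, wild-type base, wox4-1 internode and wild-type internode. The bases lie below the internodes for psbK, psbH, psbT, ndhA, ndhH and atpA, and overlap with them for psbA, psbD and psaA.

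Photosystem I, which reduces ferredoxin, had 1 gene of 5 that fell, a share near the 17.1% of all probe sets. This was psaI, a small subunit, with levels of 8.26, 8.81 and 8.95 in wox4-1 bases and 8.44, 8.45 and 8.86 in wild-type bases, against 9.14, 9.12 and 9.05 in wox4-1 internodes and 9.19, 8.91 and 9.16 in wild-type internodes. Base and internode were apart within each genotype, and the change was -0.47 (SE 0.114, adjusted p = 0.00574 by limma). The reaction centre subunits did not pass: psaA had levels of 5.99, 6.41 and 6.63 in wox4-1 bases and 6.08, 5.94 and 6.32 in wild-type bases, against 5.93, 5.77 and 6.09 in wox4-1 internodes and 6.18, 5.99 and 6.12 in wild-type internodes. The wild-type positions overlapped, and so did those of wox4-1 through array 1, with changes of 0.41 in wox4-1 (adjusted p = 0.0577 by limma) and 0.02 in wild type. The wox4-1 change of psaA passed with arrays centred on their medians, without dim probe sets, with trended and robust variances, and with the replicate number as a block or as a block within genotype (adjusted p = 0.0212 to 0.0482). It did not pass with a block within position. Without wox4-1 base 1 the average change of psaA was 0.30 and passed (adjusted p = 0.0149 by limma), the only one of the 47 genes called higher at the base in that setting. For psaB levels were 9.60, 10.98 and 11.29 in wox4-1 bases and 10.57, 10.80 and 10.80 in wild-type bases, against 10.91, 11.38 and 11.19 in wox4-1 internodes and 11.23, 10.89 and 11.21 in wild-type internodes. The wox4-1 positions overlapped, and the change of -0.46 had a wide 95% interval of -0.93 to 0.01. Without array 1 of the wox4-1 bases, where psaB was lowest, the average change was -0.21 (adjusted p = 0.143 by limma) and that of wox4-1 -0.03. It passed in 2 of 19 alternatives, without array 3 of the wox4-1 bases and with the replicate number as a block within genotype (adjusted p = 0.0282), both of which keep array 1.

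The remaining photosystem I genes were psaC, which carries the terminal iron-sulfur clusters, and psaJ, a small subunit. Levels of psaC were 5.53, 5.09 and 5.28 in wox4-1 bases and 5.17, 4.90 and 5.49 in wild-type bases, against 5.44, 4.79 and 5.15 in wox4-1 internodes and 5.73, 5.45 and 5.58 in wild-type internodes. The arrays overlapped between positions in both genotypes, with changes of 0.17 in wox4-1 and -0.40 in wild type. Neither passed in the main fit. That of wild type did with the replicate number as a block and as a block within genotype (adjusted p = 0.0191 within genotype by limma), but not as a block within position. The wox4-1 change was 0.06 without array 1 of the bases. For psaJ levels were 9.61, 9.55 and 9.55 in wox4-1 bases and 9.65, 9.58 and 9.62 in wild-type bases, against 9.71, 9.42 and 9.70 in wox4-1 internodes and 9.84, 9.61 and 9.73 in wild-type internodes. Its positions overlapped too, and the 95% interval of its change was -0.21 to 0.06.

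In the cytochrome b6f complex, which links the photosystems, 2 of 6 genes fell, beside 17.1% of all probe sets. For petA (cytochrome f), levels were 8.26, 8.61 and 8.67 in wox4-1 bases and 8.40, 8.75 and 8.61 in wild-type bases, against 8.93, 9.13 and 8.99 in wox4-1 internodes and 8.88, 8.87 and 9.33 in wild-type internodes. The bases lay below the internodes on all arrays, with a change of -0.47 (SE 0.101, adjusted p = 0.00247 by limma). Levels of petB (cytochrome b6) were 11.24, 12.06 and 12.13 in wox4-1 bases and 11.85, 11.74 and 12.09 in wild-type bases, against 12.24, 12.37 and 12.23 in wox4-1 internodes and 12.33, 12.22 and 12.29 in wild-type internodes. No base array reached an internode array, and the change of -0.43 passed (adjusted p = 0.0182) but not without both replicate 2 arrays of the wild type (adjusted p = 0.06).

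Subunit IV, petD, is a dim probe set read after petB in the same unit, with levels of 4.01, 3.90 and 3.86 in wox4-1 bases and 3.86, 3.66 and 3.60 in wild-type bases, against 3.75, 3.72 and 3.66 in wox4-1 internodes and 3.77, 3.71 and 3.87 in wild-type internodes. In wox4-1 all bases were above all internodes and in wild type they overlapped, and the average change of 0.07 did not pass. Of the small subunits, petN had levels of 5.52, 5.41 and 5.40 in wox4-1 bases and 5.36, 5.27 and 5.14 in wild-type bases, against 5.18, 5.22 and 5.28 in wox4-1 internodes and 5.37, 4.99 and 5.17 in wild-type internodes. Its wox4-1 bases were also above the wox4-1 internodes, and its average change of 0.15 did not pass (adjusted p = 0.114 by limma), except with arrays centred on their medians (0.21, adjusted p = 0.0402) and without array 1 of the wild-type internodes (0.20, adjusted p = 0.0327). For petL levels were 6.24, 5.03 and 5.12 in wox4-1 bases and 5.24, 5.51 and 4.49 in wild-type bases, against 5.45, 5.96 and 5.72 in wox4-1 internodes and 5.50, 5.55 and 6.20 in wild-type internodes. The spread within both base groups exceeded 1 on the log2 scale, and the change of -0.46 did not pass (adjusted p = 0.135 by limma), except without array 1 of the wox4-1 bases (-0.65, adjusted p = 0.015). Levels of petG, again dim, were 3.97, 4.0 and 3.83 in wox4-1 bases and 3.91, 3.85 and 3.93 in wild-type bases, against 4.11, 4.47 and 3.92 in wox4-1 internodes and 3.96, 3.95 and 4.33 in wild-type internodes. Its positions overlapped in wox4-1, and its change of -0.21 did not pass (adjusted p = 0.11 by limma). It did in 2 of 18 alternatives, with the replicate number as a block within genotype (adjusted p = 0.0475) and without array 3 of the wox4-1 internodes (adjusted p = 0.0374).

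The large subunit of Rubisco, the enzyme that fixes carbon dioxide, is coded by rbcL, with levels of 8.08, 8.61 and 8.79 in wox4-1 bases and 8.49, 8.46 and 8.62 in wild-type bases, against 8.92, 9.01 and 8.67 in wox4-1 internodes and 8.88, 8.68 and 9.05 in wild-type internodes. Positions were apart in wild type and overlapped in wox4-1, and the average change of -0.36 passed (SE 0.111, adjusted p = 0.0225 by limma). It did not pass without array 2 of the wox4-1 internodes or without array 3 of the wild-type internodes (largest adjusted p = 0.0598).

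Of the 4 genes in the group labelled assembly and maturation, ccsA and cemA fell, beside 17.1% of all probe sets. For ccsA, needed to attach haem to c-type cytochromes, levels were 10.06, 9.94 and 10.06 in wox4-1 bases and 9.81, 9.87 and 9.85 in wild-type bases, against 10.43, 10.30 and 10.30 in wox4-1 internodes and 10.54, 10.20 and 10.37 in wild-type internodes. The positions were apart on all arrays, with a change of -0.42 (SE 0.0632, adjusted p = 0.000154 by limma). The envelope membrane protein gene cemA had levels of 7.56, 8.04 and 8.11 in wox4-1 bases and 7.91, 8.14 and 8.18 in wild-type bases, against 8.56, 8.19 and 8.45 in wox4-1 internodes and 8.53, 8.47 and 8.84 in wild-type internodes. It was lower on all base arrays, by -0.52 (SE 0.107, adjusted p = 0.00196 by limma). Both ycf3 and ycf4 act in photosystem I assembly and did not pass. Levels of ycf4 were 5.46, 5.89 and 6.05 in wox4-1 bases and 5.81, 5.45 and 5.84 in wild-type bases, against 5.71, 5.73 and 5.59 in wox4-1 internodes and 6.28, 5.88 and 6.21 in wild-type internodes. Its bases were lower than its internodes in wild type (-0.42) and overlapped with them in wox4-1 (0.12), and the wild-type change of ycf4 did not pass (adjusted p = 0.0683 by limma) but did in 3 of 20 alternatives, among them the replicate number as a block within genotype (adjusted p = 0.0249). Without array 1 of the wox4-1 bases the wox4-1 change of ycf4 was 0.29. The 95% interval of the average change of ycf3 was -0.24 to 0.29.

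Low signals limit part of this account. For 8 of the 47 genes (atpI, ndhE, ndhF, ndhH, petD, petG, psbN and ycf3) all group means were under 5 on the log2 scale, as for 40.8% of all probe sets. Of these 8, 3 were called lower at the base (atpI, ndhF and ndhH). With probe sets this dim left out, 22 of the remaining 39 genes fell. Of the 13473 probe sets then tested, 26.6% were called lower and 25.5% higher.

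Changes were compared along the transcription units in which the genes lie, since neighbours share a primary transcript. The counts are of calls in the average of both genotypes, where 17.1% of all probe sets were called lower. All measured genes fell in 4 units: psbK-psbI (2 of 2), ndhC-ndhK-ndhJ (3 of 3), atpI-atpH-atpF-atpA (4 of 4) and atpB-atpE (2 of 2). None passed in 3 units, psbE-psbF-psbL-psbJ (0 of 4), petL-petG-psaJ (0 of 3) and psaA-psaB (0 of 2). The other 4 were mixed: psaI-ycf4-cemA-petA (3 of 4), psbD-psbC-psbZ (2 of 3), the psbB group psbB-psbT-psbH-petB-petD (3 of 5), and the unit that runs from ndhH to ndhD and includes psaC (3 of 7, the first 3 genes). In the psbD unit psbC and psbZ fell and psbD did not, and in the psbB group the inner genes psbT, psbH and petB fell and the outer genes psbB and petD did not. This sorting of units depended in part on array 1 of the wox4-1 bases. Without it atpI and atpH did not pass, so that their unit was mixed, while ndhE and petL passed as lower and psaA as higher.

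Whether neighbours differ was tested on the difference of their levels on each array, by an exact two-sided permutation test of base against internode within genotype, for 28 neighbouring pairs (400 arrangements, smallest possible p 0.005), a comparison that was added after the values had been seen. The difference psbD minus psbC was 0.86 larger at the base (exact p = 0.005, adjusted over the 28 pairs 0.035), at -2.07 to -1.06 on the 6 base arrays and -2.96 to -2.14 on the 6 internode arrays, with no overlap. For psaA minus psaB it was 0.68 larger (exact p = 0.005, adjusted 0.035), at -4.87 to -3.61 on base arrays and -5.60 to -4.91 on internode arrays, again with no overlap. For psbB minus psbT the difference was 0.66 larger at the base (exact p = 0.005, adjusted 0.035), and for ndhC minus ndhK 0.48 larger (exact p = 0.005, adjusted 0.035). A smaller difference that passed was that of ndhA minus ndhI, at -0.19 (exact p = 0.01, adjusted 0.0467). For petB minus petD it was -0.50 (exact p = 0.01, adjusted 0.0467), but petD is dim on all arrays, so little can be read from its side of the pair. The remaining 22 pairs did not pass, among them atpB with atpE (difference -0.02, exact p = 0.735) and psbT with psbH (-0.03, exact p = 0.845). The genes of a pair can lie at unlike levels, with means of 6.12 for psaA and 10.90 for psaB, and 11.12 for ndhC and 6.59 for ndhK. Changes of signal may be compressed near the floor or the top of the scale, so unequal changes of signal need not be unequal changes of RNA. The part of compression in these differences was not tested.

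These pair differences kept their sign under all 13 settings that leave arrays out. Without array 1 of the wox4-1 bases they were 0.76 for psbD minus psbC (exact p = 0.01), 0.51 for psaA minus psaB (exact p = 0.01), 0.59 for psbB minus psbT (exact p = 0.005), 0.47 for ndhC minus ndhK (exact p = 0.015), -0.33 for petB minus petD (exact p = 0.015) and -0.21 for ndhA minus ndhI (exact p = 0.005). Each was then at 0.07 after adjustment over the 28 pairs and did not pass. Over the 13 settings the adjusted p passed in 8 for psbD minus psbC, 7 for psaA minus psaB and 8 for psbB minus psbT. It passed in 6 for ndhC minus ndhK, 3 for petB minus petD and 3 for ndhA minus ndhI. Fewer arrangements remain when arrays are left out, and the exact p then moves in larger steps. These counts therefore cannot tell a weaker difference from a coarser test. In the same order, the differences ranged from 0.76 to 0.97, 0.51 to 0.77 and 0.59 to 0.72. The last 3 ranged from 0.42 to 0.55, -0.59 to -0.33 and -0.22 to -0.15.

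**Figure D4:**
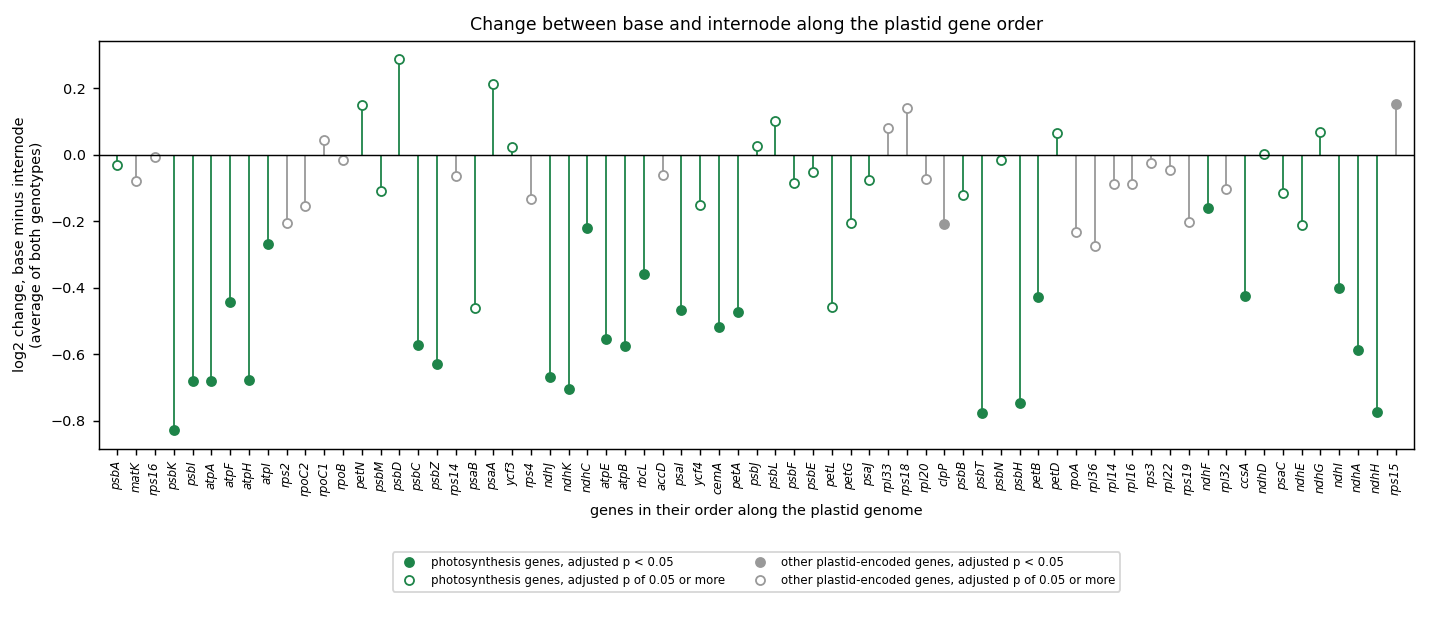
Log2 change between base and internode in the average of both genotypes for all 69 plastid-encoded genes, in their order along the plastid genome, with photosynthesis genes in green and other genes in grey (filled where the adjusted p is under 0.05). Runs of green filled points are seen for psbK to atpI and for ndhJ to atpB, broken by near-zero stretches such as psbJ to psbE, and the grey points stay within -0.27 to 0.15.

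Among the other 22 plastid-encoded genes few passed. In the average of both genotypes 1 of them fell (clpP, a protease subunit, by 0.21 on the log2 scale, adjusted p = 0.0316 by limma) and 1 rose (rps15, a ribosomal protein, by 0.15, adjusted p = 0.046), with a median change of -0.08. None of the 4 RNA polymerase genes passed (-0.23 to 0.04). Of 16 mitochondrially encoded genes, 3 rose and 0 fell, a share of higher calls near the 17.1% of all probe sets, among them nad5 by 0.49 and nad9 by 0.46, both subunits of respiratory complex I, with a median of 0.08. Array 1 of the wox4-1 bases was low for the other plastid genes as well, with a median over these genes of -0.36 relative to each gene's mean, against 0.10 and 0.12 on the other wox4-1 base arrays.

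Nuclear genes for subunits of the same complexes were also lower at the base. Of 13 that could be named, 12 fell at the base and 1 rose (ATPC2, a gamma subunit of the ATP synthase, by 0.38), with a median change of -0.54. Of all probe sets, 17.1% were called lower and 17.1% higher. The largest decreases were in the NDH subunits NdhL, by 2.46 (SE 0.127, adjusted p = 1.02e-08 by limma), and NdhN (adjusted p = 1.63e-07). Of 10 nuclear factors of plastid gene expression, OTP81, an RNA editing factor, rose by 0.41 (adjusted p = 3.76e-05), and ATAB2, which acts in the translation of photosystem mRNAs, fell by 0.44 (adjusted p = 0.000198). All 5 nuclear marker genes of green tissue that could be named on the array fell at the base, led by SBPASE (by 1.16, adjusted p = 1.32e-07) and PRK (by 0.95, adjusted p = 6.15e-07), both enzymes of the Calvin cycle, and 2 of the 5 (LHCB4.1 and LHCB4.2) are also among the subunit genes. The mean level of these 5 genes was 10.9 to 11.1 on wox4-1 base arrays and 10.7 to 10.9 on wild-type base arrays, against 11.6 to 11.8 on wox4-1 internode arrays and 11.5 to 11.7 on wild-type internode arrays. The phloem marker SWEET11, a sugar exporter, fell by 1.22 and the cambium markers MOL1 and CLE41 rose by 0.56 and 0.29, and of 2 fibre and xylem markers GUT2 fell by 0.30 and IRX15 did not pass (0.00, SE 0.0897). PYK10, a beta-glucosidase best known from roots, rose by 0.96, and the stomatal lineage marker MUTE and the cambium marker CLE44 did not pass. The part of tissue composition in the decrease of the plastid genes was not tested. A 25S ribosomal RNA control read 8.93 to 9.29 on wox4-1 bases and 9.81 to 9.90 on wild-type bases, against 8.07 to 8.41 on wox4-1 internodes and 8.71 to 9.09 on wild-type internodes, and its part was not tested either.

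Between wox4-1 and wild type, none of the 47 genes passed the threshold. At the base 0 genes were called, beside 5.04% of all probe sets, of which 50.1% were higher in wox4-1, or 72.4% with each array centred on its median. At an unadjusted p under 0.05 there were 5 genes, all higher in wox4-1, beside 4887 of all 22746 probe sets (2510 of them higher). The median change over the genes was 0.08. In the first internode 0 were called, beside 0.242% of all probe sets, with a median of -0.05 over the genes. There 5 genes had an unadjusted p under 0.05, all lower in wox4-1, beside 1819 of all 22746 probe sets (874 of them lower). In the average of both positions 0 were called, beside 5.68% of all probe sets (50.9% of them higher in wox4-1, or 66.3% with arrays centred). Here 3 genes had an unadjusted p under 0.05, beside 4543 of all 22746 probe sets, and the median over the genes was -0.02.

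The smallest p between genotypes belonged to psbK. As its values above show, its 3 wox4-1 bases (10.46 to 10.49) were all above its 3 wild-type bases (10.11 to 10.21), and the internodes overlapped. The change was 0.31 at the base (SE 0.109, adjusted p = 0.117 by limma), 0.22 in the internode (adjusted p = 0.673) and 0.26 in the average (adjusted p = 0.0648). In the average it passed in 5 settings: with arrays centred on their medians, with dim probe sets left out, with trended and robust variances, with the replicate number as a block, and without array 3 of the wild-type internodes, when psbI passed as well. The change of psbI was 0.24 (SE 0.0865, adjusted p = 0.136 by limma). At the base all wox4-1 arrays lay above all wild-type arrays for 5 genes, beside 13.3% of all probe sets. Besides psbK and psbI these were psbE, ccsA and petN, with changes of 0.21, 0.17 and 0.18 that did not pass.

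In the other complexes the genes with the smallest p in the average over positions were ndhD, with a change of -0.22 (95% interval -0.41 to -0.03), psaC at -0.17, petN at 0.12, atpE at 0.15 and cemA at -0.19, with adjusted p of 0.17 to 0.47 by limma. In the internode the lowest were ycf4, at -0.45 (SE 0.152, adjusted p = 0.376 by limma), and psaC, at -0.46 (SE 0.173, adjusted p = 0.492), with all wox4-1 internode arrays below all wild-type ones in both. This held for 8 genes in the internode, beside 6.79% of all probe sets, and the reverse for 1 (psbC), beside 7.89%. For rbcL the 95% interval of the genotype change was -0.37 to 0.31 at the base and -0.34 to 0.33 in the internode, and for psbA it was -0.30 to 0.30 and -0.37 to 0.24. Without array 1 of the wox4-1 bases, atpB (0.61, adjusted p = 0.013 by limma) and psbB (0.51, adjusted p = 0.0315) passed as higher in wox4-1 at the base, and atpB (0.30, adjusted p = 0.0307) in the average.

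Of the 13 nuclear subunit genes of the complexes, 4 were higher in wox4-1 at the base, beside 2.52% of all probe sets. These included NdhL, at 0.75 (SE 0.18, adjusted p = 0.0322 by limma), and NdhN, at 0.58 (SE 0.152, adjusted p = 0.0455), while the plastid-encoded NDH genes had changes of -0.19 to 0.32 at the base, none of which passed. Among the other plastid-encoded genes rps15 was lower in wox4-1 at the base, by 0.29 (adjusted p = 0.0496).

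**Figure D5:**
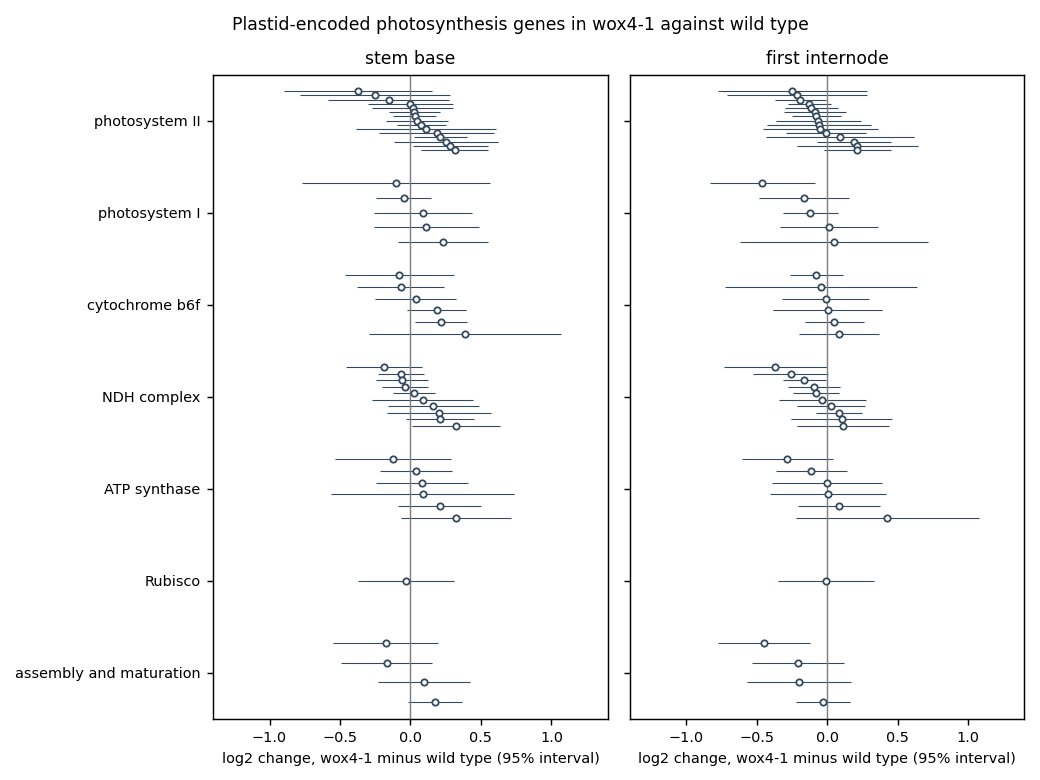
Log2 change of each of the 47 genes between wox4-1 and wild type with its 95% interval, at the stem base (left panel) and in the first internode (right panel), by complex and ordered by size within it. Open circles mark adjusted p of 0.05 or more, which is the case for all 47 genes in both panels, and most intervals span 0.

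Whether the change between base and internode differed between wox4-1 and wild type was tested as the difference of both changes. None of the 47 genes passed, beside 0.0044% of all probe sets called. Unadjusted p was under 0.05 for 5 genes, beside 1827 of all 22746 probe sets (922 of them with a positive difference). All 5 genes had a less negative or more positive change in wox4-1. These were psbE, at a difference of 0.32 (95% interval 0.06 to 0.59, adjusted p = 0.569 by limma), ycf4 at 0.55, petD at 0.29, ndhG at 0.57 and psaC at 0.57. For the genes with the largest decreases the 95% intervals of the difference were wide with 3 arrays a group, at -0.24 to 0.43 for psbK, -0.52 to 0.49 for ndhH and -0.76 to 0.74 for psbT. Differences between genotypes within these ranges are therefore not excluded.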

How the data were processed

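The deposited values are log2 expression values made from Affymetrix ATH1 scans by RMA (background correction, quantile normalization and summary per probe set), per the submitters' processing notes; the version is not given in the sources used here. RMA makes all arrays share 1 distribution, so changes are relative to it. The labels' protocols name biotin labelling by the standard Affymetrix procedure without the primer; plastid transcripts mostly lack stable poly(A) tails, and the part of the primer was not tested. Probe sets were named through the platform annotation and a RefSeq gene table (TAIR10.1, names and gene order only): of 22810, 64 controls were set aside, and of the 22746 tested 13513 carry 1 gene, 503 several and 8730 are unnamed here.

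All 4 groups were fitted in 1 linear model with limma 3.58.1 in R 4.3.3, with Benjamini-Hochberg adjustment over 22746 probe sets in each of 7 contrasts, called at an adjusted p under 0.05. The code was tested on simulated data. A gene's groups are called apart where no array of one reaches the other. Replicate numbers paired base with internode in wild type (correlations of deviations 0.29, 0.59 and 0.31), not in wox4-1 (0.14, 0.24 and -0.05) and not between genotypes (-0.06 to 0.06). Genes and lists were chosen with earlier results of these data known. Values on every array are given for the 3 largest changes per genotype, the smallest p in each complex, psaA, psbA, rbcL and all genes of units with at least 3 measured genes; further genes were added after their values were seen. Alternatives were centring, a filter on dim probe sets, trended and robust variances, fits to the compared groups, replicate blocks and arrays left out; a block within genotype and the tests of neighbouring genes were chosen after seeing the data. No sequences are shown.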

Additional observations from a re-analysis of the deposited data

How the results depend on the processing

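No called change turned its direction in any of the alternatives run. Genes called between base and internode numbered 11 to 25 in wild type when 1 array was left out (18 with all arrays), 11 to 23 in wox4-1 (17) and 22 to 26 in the average (25). Calls of higher levels at the base appeared in some alternatives in wox4-1 or in the average, for psaA, psbD, petN, petD and ndhG, and are counted in these numbers. When 1 array was left out, the share of all probe sets called lower was 7.34% to 11.8% in wild type. It was 10.1% to 13.1% in wox4-1 and 15.3% to 17.3% in the average. Leaving out both wild-type replicate 2 arrays gave 13 in wild type, beside 6.14% of all probe sets lower and 4.57% higher. Calls kept under every alternative numbered 8 of 17 in wox4-1, 10 of 18 in wild type and 20 of 25 in the average; atpH, atpI, ndhF, petB and rbcL were lost from the average in at least 1. Between genotypes, leaving out 1 array gave 0 to 2 genes at the base, 0 in the internode and 0 to 2 in the average of positions. Median centring, the filter on dim probe sets, trended and robust variances and the replicate block each gave 1 gene, psbK, in that average, against 0. The difference between the genotypes' position changes gave 0 throughout. Pairing the arrays by replicate number as a block gave 17 calls in wox4-1, 18 in wild type and 25 in the average, and as a block within genotype 22, 19 and 27; the calls it changed within wild type were ndhC, psaC and ycf4. The alternative of taking the probe set with the lowest mean gave no value, since each gene has 1 probe set. Probe sets near background and the 3 arrays a group limit which small changes can be seen.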
